A study of Mus musculus with 6 samples.

Results

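Claudins and their tight junction partners were followed as a group of 36 genes: 21 claudins, 3 MARVEL-domain proteins, 3 junctional adhesion molecules, 4 plaque scaffolds and 5 polarity proteins. They were taken by gene symbol, with earlier results of these data known, and each had a probe set that the platform annotation ties to 1 symbol. All 36 were therefore measured, among 22180 genes in the series. Only Cldn19 had 2 such probe sets, and for it the one of higher mean over the 6 arrays was used. The tissue was the outer wall of the eye from mice aged 12 months, which holds the retinal pigment epithelium (RPE) with the choroid and sclera behind it. One group was 3 samples of 5XFAD mice heterozygous for the transgene, and the other was 3 samples of wild-type littermates without it. Neither group was treated. As background, 5XFAD mice carry human amyloid precursor protein and presenilin genes with familial Alzheimer's disease mutations, driven by a Thy1 promoter that is active mainly in neurons. The labels do not say whether each sample came from 1 animal or from several, so the p-values below refer to the spread among samples, and some of that spread may be technical.

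Tight junctions close the gap between neighbouring cells of an epithelium or endothelium. Claudins span the membrane, meet the claudins of the next cell and form strands that either seal the gap or leave ion-selective pores, so the set of claudins a cell makes sets how leaky its layer is. Occludin and its relatives, junctional adhesion molecules, the zonula occludens scaffolds inside the cell and polarity complexes organise the strands. In the outer eye wall the RPE carries such junctions as the outer blood-retinal barrier, whereas the choroidal capillaries beneath it are fenestrated, and the conjunctiva and cornea at the front of the eye have surface epithelia with junctions of their own.

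The deposited values are log2 intensities, 1 per probe set and array, and all levels below are on that scale. Median log2 intensity lay between 5.59 and 5.71 over the 6 arrays, and pairwise correlations between arrays lay between 0.981 and 0.990. A probe set's brightness depends on its probes as well as on the transcript. Levels of different genes are therefore only a rough guide, and groups are compared within 1 gene or list. Precision is limited by the number of arrays, and the median standard error of a difference was 0.126 over these genes. In bulk tissue, fewer cells of a type and less RNA per cell cannot be told apart. The RPE label was checked against its markers, whose median level was 10.40. Rpe65, the isomerase of the visual cycle, lay between 12.23 and 12.78 in every array. Not all were bright: Best1 had a mean of 5.18, and it was also the 1 marker with a positive difference (0.26). The same 15-gene RPE list had negative differences in 14 genes, with an unadjusted p under 0.05 in 11 lower ones, and its mean lay between 10.24 and 10.45 in the 5XFAD arrays and between 10.63 and 10.81 in the wild-type arrays. Skeletal muscle markers, which mark attached eye muscle, varied widely within both groups, with list means of 6.44 to 7.89 in 5XFAD and 5.63 to 7.33 in wild type, and 9 of 10 were positive, 3 of them higher at an unadjusted p under 0.05, with a median of 0.92. Rod marker means ran from 5.69 to 6.74 and from 5.80 to 6.87, with negative differences in all 9 measured genes, 1 of them lower at an unadjusted p under 0.05. Macrophage marker means ran from 8.70 to 9.06 and from 8.70 to 8.75, with 9 of 10 positive, 3 higher at an unadjusted p under 0.05 and a median of 0.20.

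No tight junction gene differed between 5XFAD and wild-type tissue past the threshold over all genes (limma, 0 of 36 at a Benjamini-Hochberg adjusted p under 0.05, lowest 0.341 for Cldn1), where 0.0225% of all genes passed as higher and 0% as lower. At an unadjusted p under 0.05 in limma, 6 of 36 stood out (16.7%), against 6.28% of all genes tested. Cldn19, Cldn20 and Cldn6 were the 3 higher ones, where the share of all genes was 2.89%, and Cldn1, Cldn22 and Jam3 the 3 lower ones, where it was 3.39%. The 3 arrays of each group did not overlap in 8 of the 36 genes (22.2%), against 11.3% of all genes: Cldn19, Cldn20, Cldn6, Cldn15 and F11r lay higher in 5XFAD (4.72% of all genes) and Cldn1, Cldn22 and Crb3 lower (6.62%). The median log2 difference was -0.03 over the 36 genes and -0.01 over all genes, with 17 positive and 19 negative among the 36, and 23 of them (63.9%) differed by less than 0.2, against 83.1% of all genes. Without wild type replicate 2 the lower genes at an unadjusted p under 0.05 numbered 5 in place of 3, but the share of all genes was not taken in that setting.

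**Figure D1:**
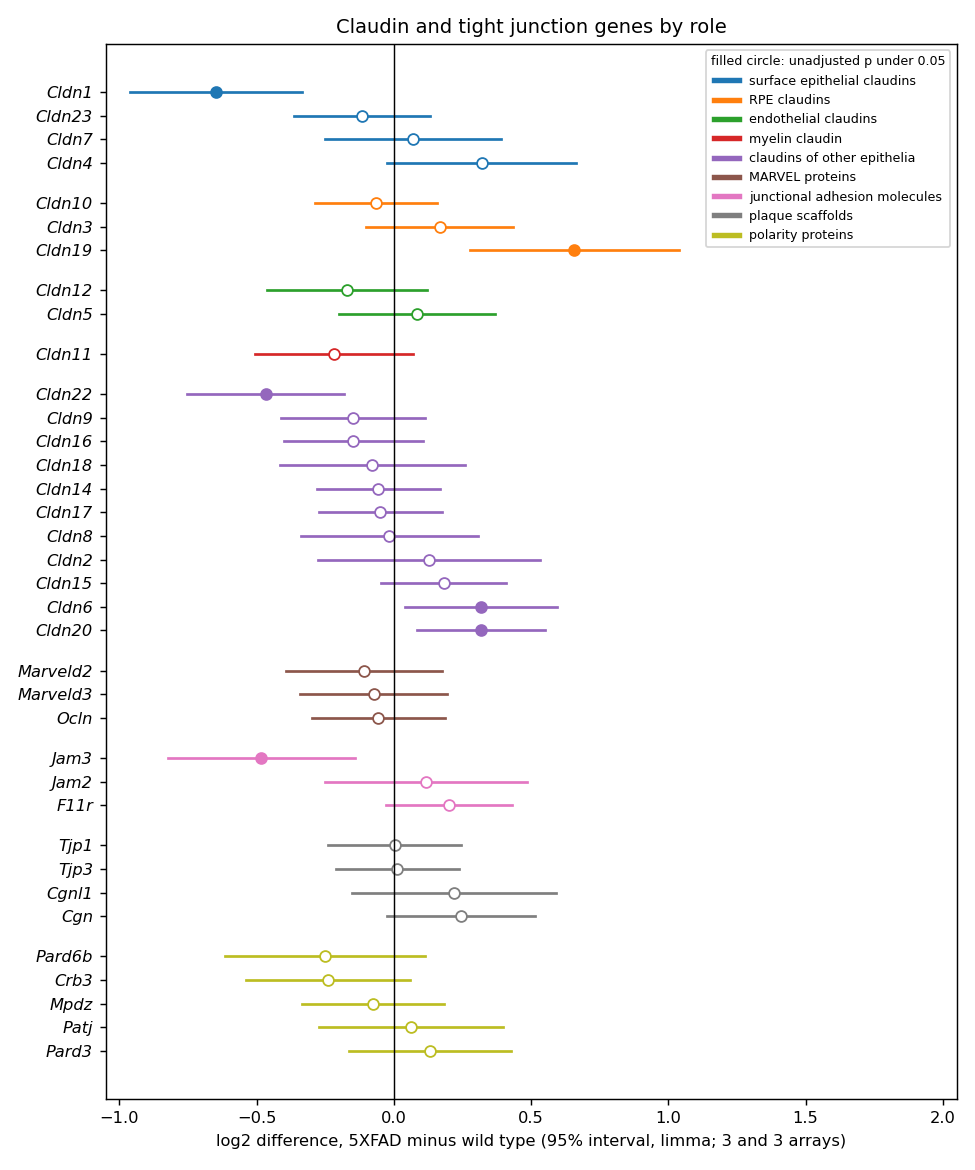
Log2 difference, 5XFAD minus wild type, for each of the 36 genes (x axis; circles, with 95% intervals from limma), grouped by role along the y axis; filled circles have an unadjusted p under 0.05. Cldn1 (-0.65) and Cldn19 (0.66) lie farthest from 0, on opposite sides, and the intervals of 30 genes include 0.

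Cldn1, a sealing claudin of epidermis and many other epithelia, was the member with the most negative difference. Its log2 intensity was 9.70, 9.96 and 10.15 in the 5XFAD arrays and 10.39, 10.68 and 10.67 in the wild-type arrays. Every 5XFAD array lay below every wild-type array, and 5XFAD replicate 1 was the lowest of the 6. The means were 9.93 ± 0.23 and 10.58 ± 0.16 (SD, n = 3 per group), a difference of -0.65 ± 0.14 (log2, ± SE) or a 0.638-fold level that did not pass over all genes (limma, Benjamini-Hochberg adjusted p = 0.341, unadjusted 0.00112). With each array left out in turn the difference lay between -0.76 and -0.53. Several other settings, such as the replicate block and the filters on dim genes, leave the difference itself unchanged, so its sign there is no further support. Cldn1 lay on the same side as the RPE list and opposite to the surface epithelium list. Taken relative to the mean of the RPE markers in the same array, its difference was -0.26, and every 5XFAD array still lay below every wild-type array. The differences of the RPE markers themselves ran from -0.64 to 0.26, so markers at the low end also fall relative to that mean. The part of either cell type in the Cldn1 value was not tested.

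Cldn19, a claudin of the RPE, of the kidney's thick ascending limb and of Schwann cells whose human gene is mutated in a disorder joining magnesium loss with eye defects, had the largest positive difference. Its log2 intensity was 7.24, 7.61 and 7.27 in the 5XFAD arrays and 6.45, 7.06 and 6.64 in the wild-type arrays. The groups did not overlap, although wild type replicate 2 came within 0.178 of the lowest 5XFAD array. The means were 7.37 ± 0.21 and 6.72 ± 0.31 (SD, n = 3 per group), a difference of 0.66 ± 0.17 or a 1.577-fold level (limma, Benjamini-Hochberg adjusted p = 0.454, unadjusted 0.00347). Relative to the mean of the RPE markers in the same array the difference was 1.05. The mean of those markers itself differed by -0.39, so subtracting it raises the difference of any gene by that amount. Cldn3 (0.56) and Cldn10 (0.33) also had groups apart on that relative scale, although their own groups overlapped. Their separation there follows the marker list and is not a result about either gene. Schwann cell and myelin markers, the other cells of this tissue in which Cldn19 is known, had a list median of 0.01 over 7 measured genes, with list means of 7.51 to 7.60 in 5XFAD and 7.55 to 7.60 in wild type.

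The dimmer Cldn19 probe set did not show the difference. It read 6.01, 6.15 and 5.99 in the 5XFAD arrays and 5.9995, 5.84 and 6.29 in the wild-type arrays, and the groups overlapped. Its difference was 0.0046 ± 0.13 (limma over all probe sets, unadjusted p = 0.973), against 0.66 ± 0.18 for the brighter one in the same fit (unadjusted p = 0.00575). When both were averaged the difference was 0.33. Where in the gene either probe set lies is not given in the sources used here, and RefSeq places a noncoding gene, Gm12927, over part of Cldn19.

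**Figure D2:**
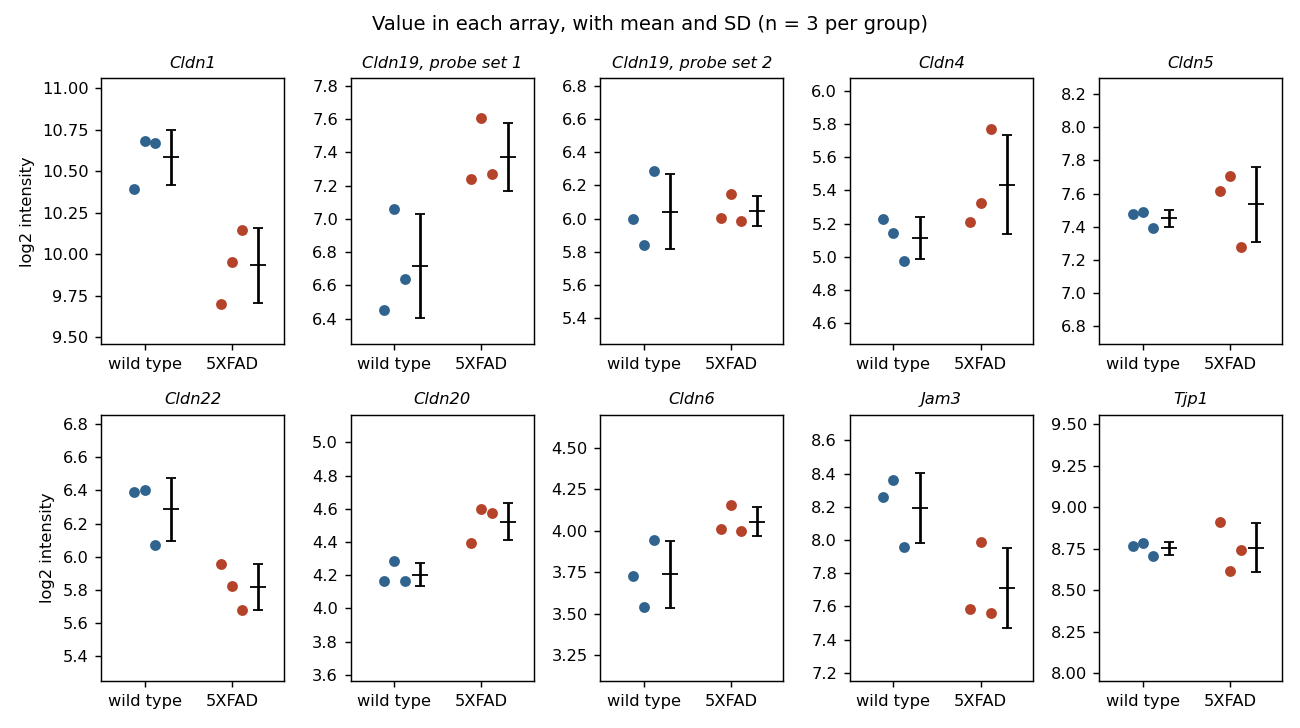
Log2 intensity (y axis, all panels spanning the same range) in each wild-type (blue) and 5XFAD (red) array, with the mean and SD of 3 arrays beside the points, for 9 genes; Cldn19 is drawn for both probe sets. Cldn1, Cldn22, Cldn20, Cldn6 and the brighter Cldn19 probe set have groups apart, whereas the dimmer Cldn19 probe set, Cldn4, Cldn5, Jam3 and Tjp1 overlap.

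The sequences just before the transcription start of these genes are shown because Cldn1 and Cldn19, which differed in opposite directions, and Cldn5, the endothelial claudin, stand for the cell types compared. They are the 250 bases upstream of the outermost RefSeq start in the mouse build GRCm38.p6, written 5′ to 3′ on the gene's strand, with matches to the GC box GGGCGG or its reverse complement CCGCCC in capitals. Cldn1 lies at chr16:26371840-26372089 (minus strand), Cldn19 at chr4:119255191-119255440 (plus strand) and Cldn5 at chr16:18776597-18776846 (plus strand).
Cldn1: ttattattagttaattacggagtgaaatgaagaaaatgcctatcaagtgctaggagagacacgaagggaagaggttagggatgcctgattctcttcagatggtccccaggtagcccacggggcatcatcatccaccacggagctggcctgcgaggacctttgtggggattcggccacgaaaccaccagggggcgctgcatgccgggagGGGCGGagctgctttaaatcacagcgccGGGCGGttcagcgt
Cldn19: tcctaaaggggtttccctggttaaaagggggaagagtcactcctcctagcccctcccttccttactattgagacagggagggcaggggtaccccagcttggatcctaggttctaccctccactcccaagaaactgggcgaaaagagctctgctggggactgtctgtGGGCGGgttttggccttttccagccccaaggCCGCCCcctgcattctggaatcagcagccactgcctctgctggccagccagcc
Cldn5: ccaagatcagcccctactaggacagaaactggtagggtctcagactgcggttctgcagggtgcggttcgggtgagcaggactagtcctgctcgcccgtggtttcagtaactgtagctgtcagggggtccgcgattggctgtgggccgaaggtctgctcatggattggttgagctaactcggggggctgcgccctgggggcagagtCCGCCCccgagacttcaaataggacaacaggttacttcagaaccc
Cldn1 has 2 GC boxes, beginning 42 and 14 bases before the start, Cldn19 has 2, beginning 84 and 53 bases before it, and Cldn5 has 1, beginning 45 bases before it. Over the 29 members with a promoter entry, 17 (58.6%) hold a GC box in this window, against 33.0% of 27025 genes, and their median GC content was 59.2% against 52.0%. None of the windows of Cldn1, Cldn19 and Cldn5 holds the letters TAATCC, the core bound by the RPE factor OTX2 (6.9% of members and 6.37% of genes, either strand), CACATG, an M-box core bound by MITF (3.45% and 12.2%), or the E-box CACGTG (6.9% and 6.04%). These matches describe letters in a window and not binding.

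Claudins named for the RPE were Cldn3, Cldn10 and Cldn19, and only Cldn19 had an unadjusted p under 0.05. Cldn3, a sealing claudin of many epithelia, read 6.73, 6.48 and 6.73 in 5XFAD and 6.46, 6.35 and 6.63 in wild type, with overlapping groups and a difference of 0.17 ± 0.12 (95% interval -0.10 to 0.44). Cldn10, which forms ion pores, read 5.30, 5.39 and 5.31 in 5XFAD and 5.38, 5.32 and 5.50 in wild type, a difference of -0.07 ± 0.10 (-0.29 to 0.16). The median over the 3 genes was 0.17, with 2 positive and 1 negative, where the 15 RPE markers had a median of -0.45. Without 5XFAD replicate 2 that median was 0.25. Cldn1 is also found in RPE, and with an alternative class of Cldn1, Cldn2, Cldn3 and Cldn19, 2 of 4 had an unadjusted p under 0.05, 1 higher and 1 lower, with a median of 0.15.

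Surface epithelial claudins were Cldn1, Cldn4, Cldn7 and Cldn23, of which 2 were positive and 2 negative, with a median of -0.02 and only Cldn1 at an unadjusted p under 0.05. With Cldn8 in place of Cldn1 the median was 0.03 and 0 of 4 had an unadjusted p under 0.05 in limma. Of the surface epithelium markers in the same arrays, 11 of 14 measured were positive and 7 were higher at an unadjusted p under 0.05. Their median difference was 0.38, and the mean of the list lay between 6.53 and 7.05 in 5XFAD and between 5.82 and 5.85 in wild type. That mean rests on 6 genes with differences over 1: Krt4, a keratin of mucosal epithelium, differed by 3.21 ± 0.22, Krt15 by 3.55, and Krt6a, Krt13, Muc4 and Krt14 by 1.86 or less. Krt12, Krt19 and Dsg1a differed by 0.40, 0.37 and 0.14, with groups apart in Krt19 only. Sfn, Trp63, Perp, Dsp and Aldh3a1 differed by -0.19 to 0.09, each with overlapping groups. Cldn4, a claudin of surface and gland epithelia, read 5.21, 5.32 and 5.77 in 5XFAD and 5.23, 5.14 and 4.97 in wild type. Its groups overlapped through 5XFAD replicate 1, and the difference was 0.32 ± 0.15 (95% interval -0.03 to 0.67), or 0.15 without 5XFAD replicate 3. Cldn7, which is found along the sides of epithelial cells, read 5.00, 4.91 and 5.44 in 5XFAD and 5.05, 5.02 and 5.07 in wild type, a difference of 0.07 ± 0.14 (-0.25 to 0.39) that was -0.10 without 5XFAD replicate 3. Both were highest in 5XFAD replicate 3, which also had the highest mean of the surface epithelium list. Cldn23 differed by -0.12 ± 0.11 (-0.36 to 0.13). The part of surface epithelium in these values was not tested.

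Endothelial claudins had no member at an unadjusted p under 0.05. Cldn5, the main claudin of endothelium and of the blood-brain barrier, read 7.62, 7.71 and 7.28 in 5XFAD and 7.48, 7.49 and 7.39 in wild type. The 5XFAD arrays lay on both sides of the wild-type ones, with a difference of 0.08 ± 0.13 (95% interval -0.20 to 0.37; limma, Benjamini-Hochberg adjusted p = 0.964). Cldn12, a broadly expressed claudin also found in brain endothelium, read 7.09, 6.84 and 7.12 in 5XFAD and 6.97, 7.27 and 7.32 in wild type, a difference of -0.17 ± 0.13 (-0.46 to 0.12). The other 12 endothelial markers, which include Pecam1 and Cdh5, had a median of -0.06 and list means of 8.68 to 8.998 in 5XFAD and 8.91 to 8.92 in wild type. In limma 0 of these 12 passed over all genes and 0 had an unadjusted p under 0.05. The interval of Cldn5 reaches a 1.29-fold higher level in 5XFAD.

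**Figure D3:**
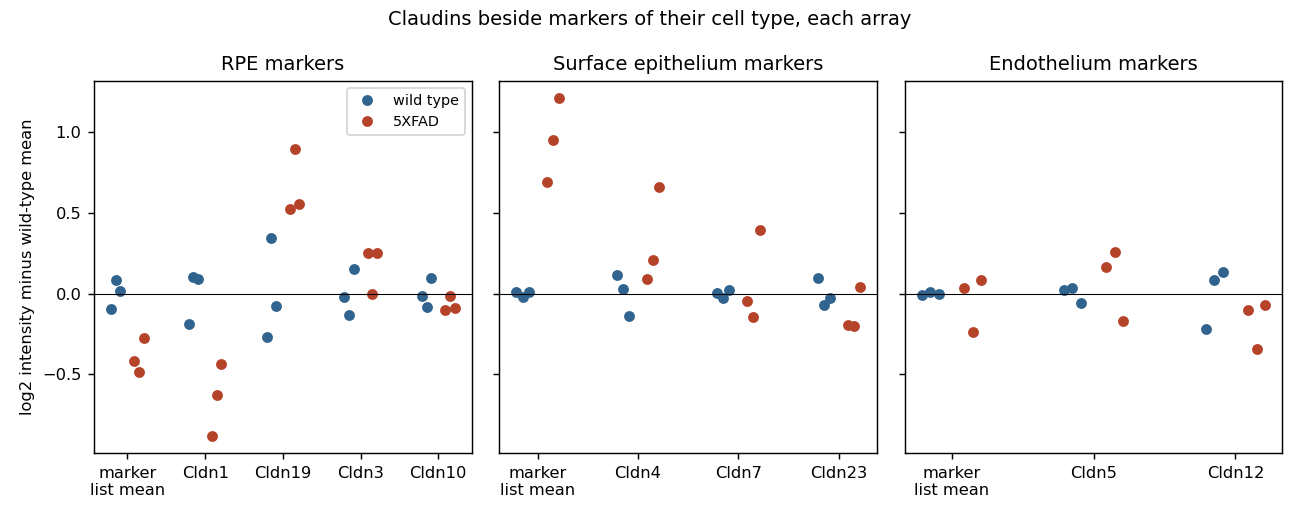
Each array's log2 intensity minus the wild-type mean (y axis) for the mean of a cell type's marker list and for claudins set beside it (x axis), in wild-type (blue) and 5XFAD (red) arrays. The RPE marker mean and Cldn1 lie lower in all 3 5XFAD arrays while Cldn19 lies higher. The surface epithelium mean is higher by 0.95 while Cldn4, Cldn7 and Cldn23 overlap with wild type. The endothelial marker mean and Cldn5 have 5XFAD arrays on both sides of 0, and Cldn12 lies below 0 in all 3 but overlaps with wild type.

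Cldn11, which builds the strands of central myelin and of Sertoli cells, read 7.39, 7.47 and 7.47 in 5XFAD and 7.90, 7.44 and 7.64 in wild type. Only wild type replicate 2 lay within the 5XFAD range, and the difference was -0.22 ± 0.13 (95% interval -0.51 to 0.07). It was -0.10 without wild type replicate 1 and -0.33 without wild type replicate 2.

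The remaining 11 claudins belong to other epithelia such as kidney, gut, stomach and inner ear, and 8 of them lay in the lowest 30% of genes by mean, where background compresses differences. Their median difference was -0.05, with 4 positive and 7 negative. Cldn22 read 5.96, 5.82 and 5.68 in 5XFAD and 6.39, 6.40 and 6.07 in wild type, with every 5XFAD array below every wild-type array and a difference of -0.47 ± 0.13 (limma, Benjamini-Hochberg adjusted p = 0.511, unadjusted 0.00493). Its neighbour and paralog Cldn24 differed by -0.09 ± 0.11, but at a mean of 3.66, against 6.05 for Cldn22. At that low level background could hide a difference. Cldn20 read 4.40, 4.60 and 4.57 against 4.16, 4.28 and 4.17, a difference of 0.32 ± 0.10 with groups apart (limma, Benjamini-Hochberg adjusted p = 0.635, unadjusted 0.0126). In RefSeq Cldn20 lies within the span of Tfb1m, a mitochondrial rRNA methyltransferase gene, which differed by -0.05 ± 0.12. Cldn6, a claudin of embryonic epithelia, read 4.01, 4.16 and 3.997 against 3.73, 3.54 and 3.94, a difference of 0.32 ± 0.12 (limma, Benjamini-Hochberg adjusted p = 0.729, unadjusted 0.0288). Its gap between groups was 0.055, and without the dimmest 30% of genes neither Cldn20 nor Cldn6 was tested.

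Cldn15, a cation pore of the gut, read 5.19, 5.26 and 5.27 in 5XFAD and 4.94, 5.09 and 5.15 in wild type, apart by 0.040, with a difference of 0.18 ± 0.10 (limma, unadjusted p = 0.104). Cldn2, a cation pore of leaky epithelia, differed by 0.13 ± 0.18, and the other claudins of this class, Cldn8, Cldn9, Cldn14, Cldn16, Cldn17 and Cldn18, by -0.15 to -0.02, each with overlapping groups. Claudin genes often lie in pairs, and 4 pairs of claudins here are next to each other among RefSeq protein-coding genes. Cldn1 (-0.65) neighbours Cldn16 (-0.15), Cldn6 (0.32) neighbours Cldn9 (-0.15), Cldn4 (0.32) neighbours Cldn3 (0.17), and Cldn17 (-0.05) neighbours Cldn8 (-0.02). The groups overlapped in Cldn16 and Cldn9 while they did not in their partners.

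**Figure D4:**
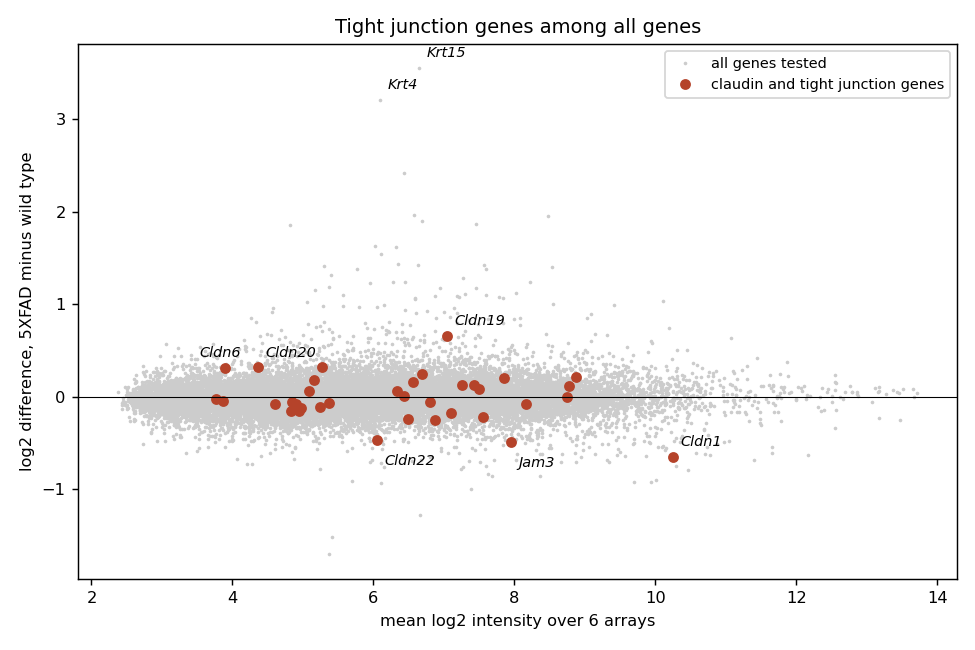
Log2 difference, 5XFAD minus wild type (y axis), against mean log2 intensity over 6 arrays (x axis) for the 36 tight junction genes (red) and all 22180 genes (grey). Of the red points only Cldn1 and Cldn19 differ by 0.5 or more, where 1.44% of all genes do, and the keratin genes Krt4 and Krt15 mark the upper edge of the grey cloud.

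Among the other membrane proteins, Jam3, a junctional adhesion molecule (JAM-C) of epithelial, endothelial and glial contacts, had the most negative difference. It read 7.58, 7.99 and 7.56 in 5XFAD and 8.26, 8.36 and 7.96 in wild type. The groups overlapped only in that 5XFAD replicate 2 lay above wild type replicate 3, and the difference was -0.48 ± 0.15 (limma, Benjamini-Hochberg adjusted p = 0.627, unadjusted 0.0108). F11r, which encodes JAM-A, read 7.88, 8.01 and 7.96 against 7.78, 7.84 and 7.63, with groups apart by 0.043 and a difference of 0.20 ± 0.10 (95% interval -0.03 to 0.43). Jam2, the JAM-B of endothelium, differed by 0.12 ± 0.16.

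Occludin and its relatives had no member at an unadjusted p under 0.05 in limma. Ocln read 6.84, 6.86 and 6.60 in 5XFAD and 6.80, 6.83 and 6.85 in wild type, a difference of -0.06 ± 0.11 (95% interval -0.30 to 0.18). Marveld2 encodes tricellulin, which closes the points where 3 cells meet, and differed by -0.11 ± 0.13. Marveld3 differed by -0.07 ± 0.12. All 3 differences were negative, with a median of -0.07, and 5XFAD replicate 3 had the lowest Ocln and Marveld2 values; without it the median was 0.0014.

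The plaque scaffolds tie the strands to actin. Tjp1, the scaffold ZO-1, read 8.91, 8.62 and 8.74 in 5XFAD and 8.77, 8.78 and 8.71 in wild type, a difference of 0.0032 ± 0.11 (95% interval -0.24 to 0.25). Tjp3, the ZO-3 of epithelia, differed by 0.01 ± 0.10. Cingulin (Cgn), which links the plaque to myosin, differed by 0.24 ± 0.12 (-0.03 to 0.51) and its relative Cgnl1 by 0.22 ± 0.17 (-0.15 to 0.59). All 4 differences were positive, with a median of 0.12 that was 0.04 without 5XFAD replicate 3.

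Polarity proteins set where along the side of a cell the junction forms. Crb3, the Crumbs protein of epithelia, read 6.35, 6.41 and 6.35 in 5XFAD and 6.51, 6.42 and 6.90 in wild type. Its groups did not overlap, but the gap was 0.016 and wild type replicate 3 stood above the other 5 arrays, with a difference of -0.24 ± 0.13 (limma, unadjusted p = 0.102). Pard6b, an adaptor of the apical kinase complex, differed by -0.25 ± 0.16, its partner Pard3 by 0.13 ± 0.13, and the multi-PDZ scaffolds Patj and Mpdz by 0.06 ± 0.15 and -0.08 ± 0.12.

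Other junction genes, a list of 50 adherens and tight junction genes chosen by role, were measured in 48 cases. In limma 0 passed over all genes. At an unadjusted p under 0.05, 1 was higher (2.89% of all genes) and 1 lower (3.39%), together 4.17% of the list against 6.28% of all genes. The groups were apart in 4 (8.33%, against 11.3% of all genes), and the median was -0.03. Neither share of the list was above that of all genes. Nectin3, an adhesion molecule that in the eye joins pigmented and nonpigmented epithelia, read 7.78, 7.85 and 7.66 in 5XFAD and 7.03, 7.66 and 6.71 in wild type, a difference of 0.64 ± 0.21 (limma, Benjamini-Hochberg adjusted p = 0.635, unadjusted 0.0131). Its groups were apart by 0.0088, with wild type replicate 2 beside the 5XFAD arrays, as it was for Cldn19. Cdh3, the P-cadherin of the RPE, read 7.78, 7.70 and 7.91 against 7.98, 8.65 and 8.12, a difference of -0.46 ± 0.17 (limma, Benjamini-Hochberg adjusted p = 0.702, unadjusted 0.0229). Without 5XFAD replicate 3 the list held 3 higher and 4 lower genes at an unadjusted p under 0.05, and without wild type replicate 2 it held 3 higher and 0 lower. The share of all genes was not taken in these settings.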

How the data were processed

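RNA of 6 samples was measured on Affymetrix whole-transcript mouse arrays, 1 per sample, after biotin labelling. The deposited values are log2 intensities per probe set, made by the authors with Affymetrix Expression Console 1.1 and RMA (background correction, quantile normalization and summary of probes), per the submitters' processing notes; filters and masking: not given in the sources used here. Of 33793 probe sets, 23521 had 1 gene symbol in a platform annotation table, 1814 several and 8458 none there. The probe set of highest mean was kept per gene, which left 22180 genes.

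Differences were tested two-sided with lmFit and eBayes of limma 3.58.1 (R 4.3.3) on the 2 groups alone. The residual degrees of freedom were 4 and the prior ones 5.23. P-values were adjusted by Benjamini-Hochberg over all genes at a threshold of 0.05, and intervals are at 95%. Steps were tested on simulated data. Classes and lists are summarised by counts and medians, with no test of the list. Genes were chosen, and lists written, with earlier results of these data known. Values per array are given for genes at an unadjusted p under 0.05 or with groups apart and for a fixed set of defining genes (Cldn1, Cldn3, Cldn4, Cldn5, Cldn7, Cldn10, Cldn11, Cldn12, Cldn19, Ocln and Tjp1); of the other junction genes, those meeting both conditions are named. Cldn24, Tfb1m and the surface epithelium markers other than Krt4 were named after their values were seen, and the promoter motifs were chosen then too. Promoter sequences and gene neighbours come from RefSeq tables of GRCm38.p6, with 29 of 36 genes matched to a promoter. Alternatives were a replicate block, filters on dim genes, median centring, quantile normalization, a trended and robust prior, array weights, other uses of probe sets, other thresholds and classes, and each array left out in turn.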

Additional observations from a re-analysis of the deposited data

How the results depend on the processing

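Over 516 values of the 36 genes under the alternatives, 0 passed the adjusted threshold (limma) and 20 changed sign, all in genes with an unadjusted p of 0.05 or more in both settings. Cldn1, Cldn19, Cldn22, Cldn20, Cldn6 and Jam3 kept their signs wherever they were tested. Leaving out 1 array moved 27 of the other 30 differences by over 1.5 times or turned their sign, and 0 of these 6. The 6 were picked by their unadjusted p in these same arrays, which favours differences large against their spread. That contrast was therefore largely set by the choice and is no further support for the 6. Their kept signs add little either, since a replicate block, filters on dim genes and a changed prior cannot move a difference. The dimmer Cldn19 probe set (difference 0.0046) entered the alternatives only through the mean of both probe sets. Scaling moved the median of all genes to at most -0.0133. The lower genes without overlap were 6 after median centring and 5 after quantile normalization, in place of 3. Shares of all genes were taken in the main setting only, so changed counts under an alternative are not read as results about these genes. Without the dimmest 30% of genes, 1 gene was higher at an unadjusted p under 0.05 and 3 were higher without overlap, and the median of claudins of other epithelia was 0.13. Without the dimmest 50% these were 1, 2 and -0.17, the last resting on Cldn2 and Cldn22 alone. The medians were then 0.41 for RPE claudins, from Cldn3 and Cldn19, and -0.65 for surface epithelial claudins, which is Cldn1 alone. Fewer genes were tested under both filters, so these medians are not shifts of a class. An unadjusted p under 0.01 left 1 higher gene (Cldn19) and 2 lower (Cldn1 and Cldn22), and a fold of at least 1.5 left 1 higher and 1 lower. With array weights 2 other junction genes were lower. With Cldn5 alone the endothelial median was 0.0831.

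With each array left out in turn, lower members at an unadjusted p under 0.05 numbered 3 to 5, other junction genes 1 to 3 higher and 0 to 4 lower, and class medians ran from 0.10 to 0.25 for RPE claudins, from -0.146 to 0.0493 for surface epithelial claudins, from -0.328 to -0.0965 for the myelin claudin, from -0.15 to 0.00076 for polarity proteins, from -0.104 to 0.0135 for claudins of other epithelia, from -0.0517 to 0.197 for junctional adhesion molecules, from -0.10 to 0.0014 for MARVEL proteins and from 0.0383 to 0.187 for plaque scaffolds. Samples of the same replicate number did not deviate together (correlations -0.056, -0.050 and 0.128; 2 of 6 correlated best with their own number). A replicate block left the counts at 0 past the threshold, 3 higher and 3 lower, with limma Benjamini-Hochberg adjusted p-values of 0.168 for Cldn1 and 0.168 for Cldn19. The causes of these shifts were not tested. With 3 arrays a group, differences within the 95% intervals given cannot be resolved.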
